A study of Mus musculus with 108 samples.

Results

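The genes described here encode the receptors and the calcium release machinery through which hormones and nerves trigger enzyme secretion from pancreatic acinar cells. They are the cholecystokinin A receptor gene Cckar, the muscarinic receptor genes Chrm1 and Chrm3, the secretin receptor gene Sctr, the G protein subunit gene Gnaq, the inositol trisphosphate (IP3) receptor genes Itpr1, Itpr2 and Itpr3, and the store-operated calcium entry genes Stim1 and Orai1. They were taken by gene symbol, and all 10 were found among the 45195 gene entries of the deposited table. Single acinar cells came from untreated male C57Bl/6 mice aged 12 weeks, whose pancreas was digested with collagenase, strained free of islets and dissociated with Accutase. Each sample was 1 cell, read by a SMART-seq2 procedure without molecular identifiers and expressed as TPM (transcripts normalised to a fixed total per cell after correction for length). All cells belonged to 1 group with no named animal, so they count as 1 sample and carry no p-value. SDs and ranges describe the spread between cells, and any difference between sets of cells cannot be told apart from a difference between mice.

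Acinar cells store digestive enzymes in granules and release them when calcium rises in the cytosol. Cholecystokinin and acetylcholine act on receptors coupled to G proteins of the Gq class, which activate phospholipase C beta. The IP3 it makes opens IP3 receptor channels in the endoplasmic reticulum. STIM proteins sense the emptied store and open Orai channels in the plasma membrane. Secretin and related peptides act instead through Gs and cyclic AMP. In mice, the type 2 and type 3 IP3 receptors are known for carrying the secretory calcium signal of exocrine glands.

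Several of these genes belong to families of similar sequence, and the values of relatives are only separable where reads differ between them. The stretches below show this for the IP3 receptors and for Gnaq and Gna14 of the Gq class, from the GENCODE M21 transcripts on GRCm38. Each is 120 coding bases, 5′ to 3′ on the sense strand, with capitals marking the codons of the conserved selectivity filter of the IP3 receptor pore. The stretches of Itpr2 (chr6:146157109-146158979, minus strand, exons 52 and 53), Itpr3 (chr17:27118580-27119241, plus strand, exons 54 and 55) and Itpr1 (chr6:108518737-108519311, plus strand, exons 58 and 59) each cross 1 intron.
Itpr2: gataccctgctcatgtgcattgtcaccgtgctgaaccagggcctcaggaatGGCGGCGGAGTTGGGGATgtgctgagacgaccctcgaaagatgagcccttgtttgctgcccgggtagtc
Itpr3: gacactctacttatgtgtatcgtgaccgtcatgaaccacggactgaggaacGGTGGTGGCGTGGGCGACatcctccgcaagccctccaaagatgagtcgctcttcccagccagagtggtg
Itpr1: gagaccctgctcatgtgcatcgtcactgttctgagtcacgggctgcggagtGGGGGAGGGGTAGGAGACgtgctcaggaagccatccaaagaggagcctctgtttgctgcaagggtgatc
In this conserved part Itpr2 matched Itpr3 at 81 of 120 bases (67.5%) and Itpr1 at 89 of 120 bases (74.2%). The longest identical run was 9 bases between Itpr2 and Itpr3 and 17 bases between Itpr2 and Itpr1. Of the 40 codons, 34 encoded the same amino acid in Itpr2 and Itpr3.

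Gq-class alpha subunits are shown in the same way, with capitals marking the codons of a conserved motif in the GTPase switch region. Gnaq (chr19:16332162-16335056, plus strand) is set beside its relative Gna14 (chr19:16603349-16605038, plus strand), each across exons 4 and 5. Gna11, the relative with the highest mean TPM of the class, is not shown.
Gnaq: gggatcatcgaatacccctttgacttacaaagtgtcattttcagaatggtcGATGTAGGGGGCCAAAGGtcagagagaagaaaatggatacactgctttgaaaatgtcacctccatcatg
Gna14: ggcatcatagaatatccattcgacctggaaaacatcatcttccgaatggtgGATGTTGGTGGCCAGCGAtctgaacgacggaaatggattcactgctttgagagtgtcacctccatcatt
Gnaq matched Gna14 at 92 of 120 bases (76.7%), with a longest identical run of 15 bases. Over whole annotated transcripts, 0 stretches of 50 bases were shared between any of these relatives, or between Gnaq and Gna11. Of the distinct 50-base stretches of Chrm1, 4.32% were also found in the opposite-strand gene Gm22820. The same was true of 1.51% for Itpr3, which overlaps Itpr3os, and of 1.07% for Itpr1. The library method does not mark strand, so the low values of Chrm1, Itpr3 and Itpr1 could hold reads from those neighbours.

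The cells carried acinar markers throughout, and every cell also carried some markers listed as ductal. Of 10 acinar markers, 9 were at or above 1 TPM in every cell, led by Prss2 and Ctrb1, and the exception was Nr5a2, in 26 cells. Of 11 ductal markers, 3 to 9 per cell were at or above 1 TPM, with Tff2 (2306 ± 415 TPM), Clu (200.2 ± 62.7 TPM) and Muc1 (25.2 ± 7.58 TPM) in every cell, Epcam in 86, Krt19 in 72 and Spp1 in 10, while Cftr was in 0. Among macrophage markers, C1qa was in 16 cells, with its partners C1qb and C1qc listed at 0. Of 14 endocrine markers, at most 2 per cell reached 1 TPM, led by Pcsk1 in 7 cells and Ins2 in 4. Lymphocyte markers were at or above 1 TPM in 0 cells. Cell__number_40 carried 9 of 11 endothelial markers (summed level 86.56 TPM), and Cell__number_96 carried 4 of 10 stellate markers (18.32 TPM). Between 2624 and 6946 genes per cell were at or above 1 TPM (median 4156). The 50 highest genes took a median of 94.9% of a cell's TPM (91.4% to 96.4%), and all 10 listed members were measured within the remainder. In 21 cells, all numbered 92 or above in their titles and called short-total cells, the table's values added up to between 788380 and 990520 TPM, against about 1000000 in the 87 full-total cells. The protocol states that 24 cells received spike-in RNA and does not say which. TPM keep no read depth, so depth is unknown, and a gene below the detection level of 1 TPM is not shown to be absent.

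Cckar stood far above the other 9 genes. It lay at 9.82 TPM in the lowest cell, 30.2 TPM in the median cell and 64.41 TPM in the highest (Cell__number_51), with a mean of 30.5 ± 9.65 TPM (SD over all cells). It was at or above 1 TPM in all cells (100%, exact 95% binomial interval 96.6% to 100%, which covers counting error only). Of the 19969 genes above 0 in any cell, 805 (4.03%) were at or above 1 TPM in every cell, and Cckar was the one member among them. By mean level it ranked 350 among all genes. The gene spans chr5:53697776-53707705 (GRCm38, minus strand).

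The order of mean TPM after Cckar was Itpr2, Stim1, Gnaq, Orai1, Chrm3, Itpr3, Sctr, Itpr1 and Chrm1. The step between Cckar and Itpr2 was 21-fold in mean TPM. As deposited, their ranges over cells came close without overlapping, with a lowest Cckar of 9.82 TPM and a highest Itpr2 of 9.43 TPM. That Itpr2 value was in Cell__number_113, whose values added up to 874817 TPM, against 1000000 TPM in Cell__number_84, which held the lowest Cckar. The narrow gap therefore holds for values as deposited and not for cells set to a common total. Below Itpr2 every neighbour in the order overlapped the next over cells, and their means differed by less than 1 SD of the higher gene. Stim1 and Gnaq, at means of 0.731 ± 0.554 and 0.712 ± 0.453 TPM, were nearly level.

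**Figure D1:**
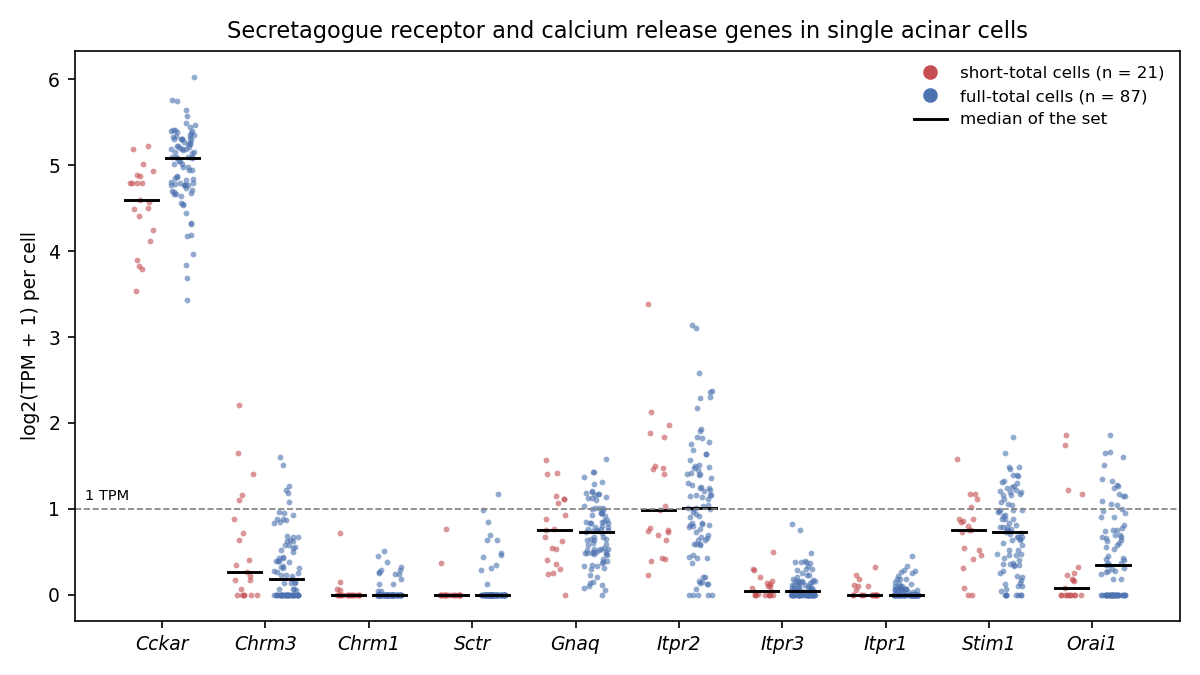
Level of each of the 10 genes in each cell, as log2(TPM + 1), with short-total cells in red left of full-total cells in blue, black lines for the median of each set and a dashed line at 1 TPM. Cckar lies above all other genes in both sets, and Chrm1, Itpr1 and Itpr3 stay below 1 TPM in every cell.

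Chrm3, the muscarinic receptor known for cholinergic secretion from exocrine glands, was low and uneven. It was 0 in the lowest cell, 0.16 TPM in the median cell and 3.62 TPM in the highest (Cell__number_113), with a mean of 0.373 ± 0.569 TPM. It reached 1 TPM in 11 cells (10.2%, interval 5.20% to 17.5%) and was above 0 in 67. The mean of Cckar was 81.7 times that of Chrm3. The 11 cells ran from 1.11 TPM in Cell__number_35 to 2.15 TPM in Cell__number_93 and 3.62 TPM in Cell__number_113, and the highest value among the other cells was 0.95 TPM. There was no gap at the detection level, so the 11 cells are the upper end of a continuous range. The gene spans chr13:9875486-10360847 (minus strand).

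Chrm1 (chr19:8663789-8683587, plus strand), the other muscarinic receptor of the list, reached 1 TPM in 0 cells, and a count of 0 leaves room for a share of 2.78% (3 cells, counting error only). Its highest value was 0.64 TPM, in Cell__number_96, the cell with the highest stellate marker level, whose part in that value was not tested. Of the 19969 genes, 6977 (34.9%) were likewise at or above 1 TPM in no cell. Chrm2, Chrm4 and Chrm5 were listed at 0 in every cell. Chrm3 held 91.5% of the summed mean TPM of the 5 muscarinic receptors.

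Sctr (chr1:120006894-120063536, plus strand), the secretin receptor, was above 0 in 15 cells and reached 1 TPM in Cell__number_35 alone, at 1.25 TPM (0.926% of cells, interval 0.0234% to 5.05%). Its mean was 0.0715 ± 0.212 TPM, and its median was 0. Of 4 other receptors of its class, which also signal through Gs, 3 stood higher and Adcyap1r1 was listed at 0. Glp1r, the receptor for glucagon-like peptide, averaged 1.17 ± 0.949 TPM and reached 1 TPM in 54 cells. Vipr2, a receptor for vasoactive intestinal peptide, averaged 1.06 ± 1.05 TPM and reached it in 47 cells. Vipr1, its relative, averaged 0.584 ± 1.42 TPM and reached it in 17 cells, and peaked at 11.93 TPM in Cell__number_8. Sctr held 2.48% of the summed mean of this class. Glp1r was the higher of the pair with Sctr in 96 cells and Vipr2 in 88.

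Cckar was the highest of 28 listed receptor genes in every cell, with a median of 79.3% of their summed TPM (57.5% to 96.8%). Cells held between 1 and 9 of these receptor genes at or above 1 TPM, with a median of 4. Insr, the insulin receptor, was the next most widespread, at 3.20 ± 2.07 TPM and in 94 cells. Cckbr, the other cholecystokinin receptor, averaged 0.0342 ± 0.120 TPM and reached 1 TPM in 0 cells. Beside Chrm3, the Gq-coupled bombesin-type receptor gene Grpr reached 1 TPM in 16 cells. Either gene was detected in 26 cells and both in 1.

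Every cell that held another of the 4 receptors also held Cckar, since Cckar was detected in all cells. At or above 1 TPM, Cckar was found with Chrm3 in 11 cells and with Sctr in 1. Chrm3 and Sctr met in Cell__number_35 only, the single cell with 3 of the 4 receptors, and no pair with Chrm1 was seen. With any value above 0 counted, Chrm3 and Sctr were found together in 10 cells and Chrm3 and Chrm1 in 13. Sctr was above 0 in 14.9% of the 67 cells with Chrm3 (interval 7.40% to 25.7%) and in 12.2% of the 41 without it (4.08% to 26.2%). Chrm3 was above 0 in 68.4% of the 19 cells with Chrm1 (43.4% to 87.4%) and in 60.7% of the 89 without it (49.7% to 70.9%). These intervals overlapped widely, so the shares could not be told apart at this number of cells.

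In the other genes, the ranges of cells with and without Chrm3 overlapped. In the 11 cells Cckar lay between 19.04 and 43.18 TPM (median 34.64), against 9.82 to 64.41 TPM (median 28.48) in the other 97. Itpr2 was detected in 6 of the 11 cells (54.5%, interval 23.4% to 83.3%) and in 49 of the 97 (50.5%, 40.2% to 60.8%). Gnaq was detected in 4 of the 11 (36.4%, 10.9% to 69.2%) and in 23 of the 97 (23.7%, 15.7% to 33.4%). Their median number of genes detected was 4172, against 4150. Stellate, endothelial, macrophage, lymphocyte, neural and smooth muscle markers were at or above 1 TPM in 0 of the 11 cells. Of 14 endocrine markers, 1 reached it in 1 cell, Gcg (glucagon) at 1.19 TPM in Cell__number_35, the cell on which the pair of Chrm3 and Sctr rests, and its part in that pair was not tested. Ductal markers at or above 1 TPM numbered 4 to 7 of 11 in these cells and 3 to 9 in the other 97, with median summed levels of 2514 and 2486 TPM.

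**Figure D2:**
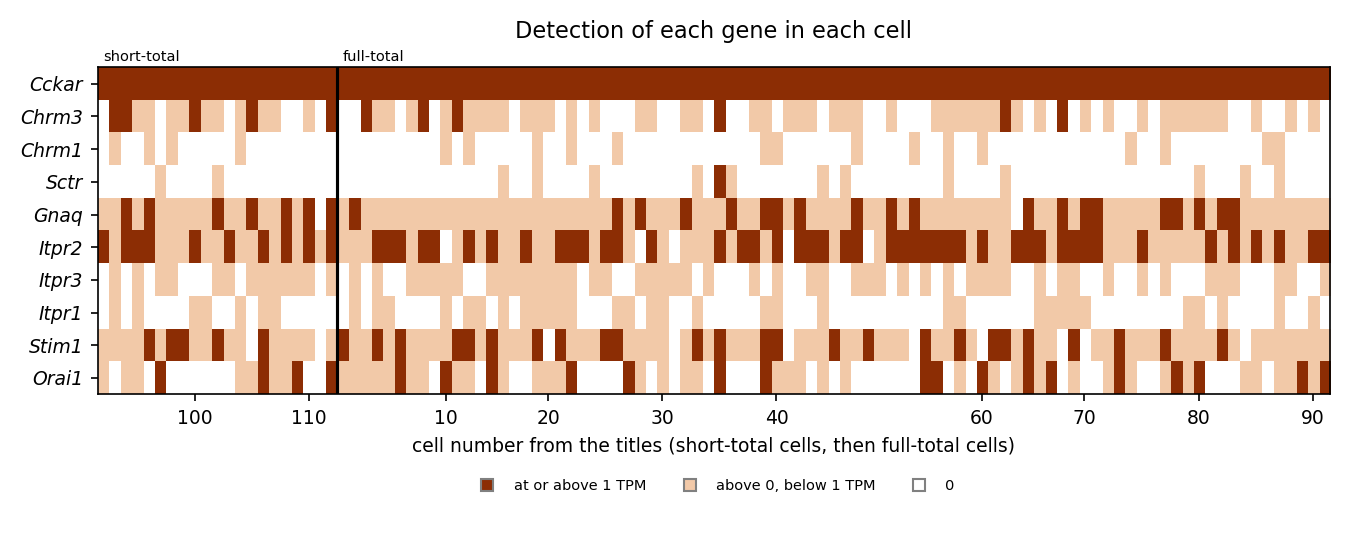
Detection of the 10 genes (rows) in each cell (columns, short-total cells left of full-total cells, each in order of cell number): dark for at or above 1 TPM, pale for above 0, white for 0. Cckar is dark in all cells, Itpr2 in 55, Chrm3 in 11 and Sctr in 1.

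Gnaq (chr19:16132831-16387463, plus strand), which carries the signal of Cckar and Chrm3 to phospholipase C, was present at a low level in nearly all cells. It was 0 in the lowest cell, 0.665 TPM in the median cell and 2.00 TPM in the highest. That cell was Cell__number_40, which carried the endothelial markers, whose part in the value was not tested, and the next value was 1.97 TPM. Gnaq was above 0 in 98.1% of cells and at or above 1 TPM in 27 cells (25%, interval 17.2% to 34.3%). Gnaq was not the leading subunit of its class. Gna11 averaged 2.31 ± 1.33 TPM, reached 1 TPM in 93 cells and was lower than Gnaq in 7. Gna14 averaged 0.979 ± 0.799 TPM and reached 1 TPM in 48 cells. Gnaq made up 17.8% of the summed mean of the class, Gna11 57.7% and Gna14 24.5%, while Gna15 was listed at 0. At least 1 of the 4 was at or above 1 TPM in 93.5% of cells.

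The phospholipases that Gq-class subunits activate also differed in level. Among the phospholipases, Plcb4 led with 1.95 ± 1.91 TPM and 68 cells, followed by Plcb1 with 0.796 TPM and 34 cells. Plcb3 reached 1 TPM in 3 cells, and Plcb2 was listed at 0. Of 18 genes of the G protein and phospholipase C list, 2 were at or above 1 TPM in every cell, beside 4.03% of the 19969 genes. The 2 of the list were Gnas, the Gs alpha subunit, at 63.5 ± 14.7 TPM, and Gng5, a gamma subunit, at 44.2 ± 14.6 TPM.

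Itpr2 was the highest of the IP3 receptors in nearly all cells. It was 0 in the lowest cell, 1.01 TPM in the median cell and 9.43 TPM in the highest (Cell__number_113), with a mean of 1.45 ± 1.56 TPM. The median cell thus sat at the detection level, and Itpr2 reached 1 TPM in 55 cells (50.9%, interval 41.1% to 60.7%), 5 TPM in 3 cells and any value above 0 in 95.4% of cells. At or above 1 TPM in at least 50% of cells were 3730 of the 19969 genes (18.7%), Cckar and Itpr2 among them. The gene spans chr6:146108299-146502223 (minus strand).

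Its relatives Itpr3 (chr17:27057304-27122223, plus strand) and Itpr1 (chr6:108213096-108551109, plus strand) stayed below the detection level throughout. Itpr3 had a mean of 0.0822 ± 0.131 TPM and peaked at 0.77 TPM in Cell__number_91, and Itpr1 a mean of 0.0372 ± 0.0691 TPM and a peak of 0.37 TPM in Cell__number_15. Both were at or above 1 TPM in 0 cells, for which the limit is again 2.78%. Values above 0 were nevertheless common, in 62 cells for Itpr3 and in 39 for Itpr1. The mean of Itpr2 was 17.7 times that of Itpr3 and 39.1 times that of Itpr1, on the length-corrected TPM scale. Within cells, Itpr3 was higher than Itpr2 in 5 and Itpr1 in 2, and Itpr2 held 92.4% of the summed mean of the family. The ryanodine receptors, the other release channels of the reticulum, reached 1 TPM in 0 cells.

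**Figure D3:**
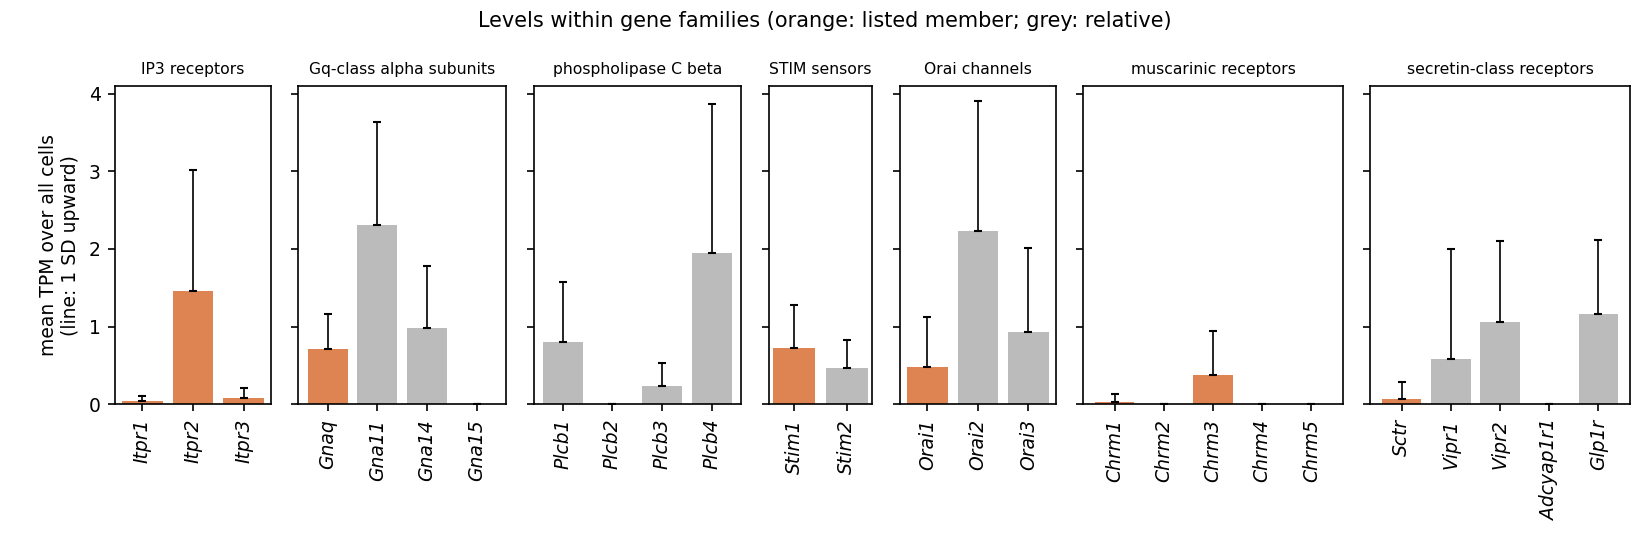
Mean TPM over all cells of each gene within 7 families, with lines for 1 SD over cells (upward); listed members in orange, relatives in grey. Itpr2 and Chrm3 lead their families, whereas Gna11 lies above Gnaq, Orai2 above Orai1, and Glp1r and Vipr2 above Sctr.

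Some genes that bind or tune IP3 receptors had higher mean TPM than Itpr2. Of 22 genes of that list, 9 (40.9%) were at or above 1 TPM in at least 10% of cells, against 36.2% of the 19969 genes. Erp44, an endoplasmic reticulum protein that binds the type 1 IP3 receptor, averaged 10.4 ± 3.37 TPM and was in every cell. Irag2, also called Lrmp, an endoplasmic reticulum protein that associates with IP3 receptors, averaged 2.86 ± 2.25 TPM and was in 87. Ahcyl2, a relative of the IP3 receptor inhibitor IRBIT, averaged 1.89 ± 1.82 TPM and was in 66.

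Stim1 (chr7:102267806-102437319, plus strand), the calcium sensor of the store, was 0 in the lowest cell, 0.675 TPM in the median cell and 2.56 TPM in the highest (Cell__number_39). It reached 1 TPM in 30 cells (27.8%, interval 19.6% to 37.2%) and was above 0 in 98. Stim2, its relative, averaged 0.465 TPM and reached 1 TPM in 5 cells. Stim1 was the higher of this pair in 71 cells and Stim2 in 35, so the lead of Stim1 was less uniform than that of Itpr2.

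Orai1 (chr5:123015074-123030456, plus strand), the channel that STIM proteins open, was more patchy than its sensor. It was 0 in the lowest cell, 0.205 TPM in the median cell and 2.64 TPM in the highest (Cell__number_109), with a mean of 0.481 ± 0.646 TPM. It reached 1 TPM in 21 cells (19.4%, interval 12.5% to 28.2%) and was 0 in 44. Orai2 stood above it in 97 cells, at 2.23 ± 1.67 TPM and 81 cells detected, and Orai3 averaged 0.935 ± 1.08 TPM in 38 cells detected. Orai1 accounted for 13.2% of the summed mean of the family. At least 1 of the 3 channels was at or above 1 TPM in 90 cells. Of the 14 genes in the list of store-operated and other calcium entry, Saraf, which switches STIM off again, was the highest at 21.5 ± 7.61 TPM and in every cell.

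Pumps and effectors completed the route. Atp2a2, the pump that refills the reticulum, averaged 1.79 ± 0.980 TPM in 86 cells detected, and Atp2a1 and Atp2a3 were listed at 0. Atp2c2, a Golgi calcium pump, averaged 2.10 ± 0.935 TPM in 96 cells. Calr, a calcium-binding chaperone of the store, averaged 25.8 ± 11.2 TPM. Smdt1, a regulator of the mitochondrial calcium uniporter, averaged 21.2 ± 8.32 TPM. Ano1, a calcium-activated chloride channel, averaged 2.43 ± 2.17 TPM in 82 cells, and Aqp12, an acinar aquaporin, 137 ± 27.9 TPM in all. In the cyclic AMP list of 17 genes, Prkar1a, a regulatory subunit of protein kinase A, led at 2.51 ± 1.24 TPM.

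At or above 1 TPM, the median cell held 2 of the 10 genes, beside 4156 of the 19969 genes above 0 in any cell. Of the 10 genes, 23 cells held 1, 42 cells 2, 30 cells 3, 10 cells 4, 2 cells 5 and 1 cell 6. In all 23 cells with 1 gene, that gene was Cckar. Gnaq, Itpr2, Stim1 and Orai1 were all detected in 1 cell. With the detection level at any value above 0, Gnaq was present in 98.1% of cells, Itpr2 in 95.4% and Stim1 in 90.7%, so these counts rest on the level of 1 TPM.

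**Figure D4:**
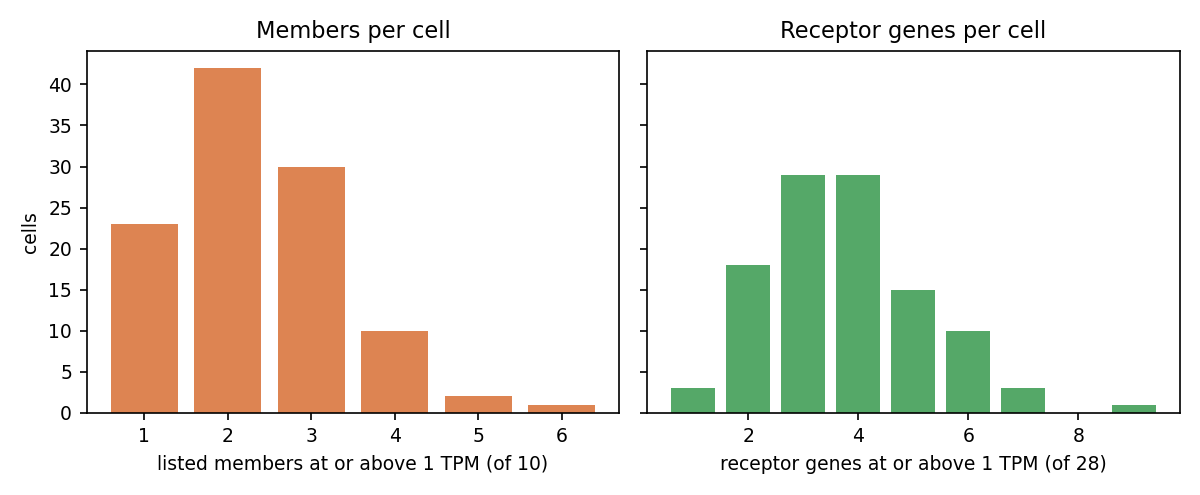
Number of cells (vertical axes) by how many of the 10 listed genes (left, orange) and how many of 28 receptor genes (right, green) they held at or above 1 TPM. The listed genes run from 1 to 6 per cell with a median of 2, the receptor genes from 1 to 9 with a median of 4.

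None of these genes was called more spread between cells than others of its level. Genes at or above 1 TPM in at least 10% of cells (11 cells) were compared with the trend of squared coefficient of variation over mean TPM, and a gene was called variable at 2 times the trend or more. Of the 7227 genes compared, 867 (12.0%) were called. Cckar, Chrm3, Gnaq, Itpr2, Stim1 and Orai1 entered and 0 were called, while Chrm1, Sctr, Itpr1 and Itpr3 were too rarely detected to enter. Itpr2 was the most spread, at 1.54 times the trend, with Orai1 at 0.970, Chrm3 at 0.870, Cckar at 0.810, Stim1 at 0.462 and Gnaq at 0.319. Among the 166 other genes of the pathway, 69 entered and 5 were called. These were Calm2, a calmodulin gene, at 6.80 times the trend, Vipr1 at 3.91, Arrb2, a beta-arrestin, at 2.65, Rgs2, a regulator of G protein signalling, at 2.24, and Slc8b1, the mitochondrial sodium-calcium exchanger, at 2.02. Single cells carried most of these calls. Without the cell where each was highest, Vipr1 (11.93 TPM in Cell__number_8) came to 1.89 times the trend, Arrb2 (9.01 TPM in Cell__number_34) to 1.76 and Slc8b1 (6.62 TPM in Cell__number_113) to 1.52, all under the call. Calm2 had 82.34 TPM in Cell__number_40, which carried the endothelial markers, and 79.54 TPM in Cell__number_31, and came to 1.31 without both. Rgs2 came to 2.08 without its highest cell and 1.94 without its 2 highest.

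Cckar was lower in the short-total cells. It lay between 10.6 and 36.38 TPM there (median 23.11), against 9.82 to 64.41 TPM (median 32.91) in the full-total cells, and the range of the short-total cells lay within that of the full-total cells. The difference of medians on the log2(TPM + 1) scale was -0.49, beside -0.15 for the median of the 7227 genes. With every cell rescaled to 1000000 TPM, it was -0.39, beside -0.12 for the median gene. Under median-of-ratios scaling, which sets the genes found in every cell to a common level, it was -0.18, beside -0.01 for the median gene. Within the full-total cells, the median of Cckar was 28.89 TPM in cells 49 to 91 and 35.41 TPM in cells 1 to 48.

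For the low genes below, the intervals of the detected shares overlapped between these sets, which does not show that the shares were alike. Chrm3 was detected in 5 of 21 short-total cells (23.8%, interval 8.22% to 47.2%) and 6 of 87 full-total cells (6.90%, 2.57% to 14.4%). The mean of Chrm3 was 0.624 ± 0.918 TPM in short-total cells and 0.313 ± 0.433 TPM in full-total cells. Itpr2 was detected in 10 of 21 short-total and 45 of 87 full-total cells, Gnaq in 7 and 20, Stim1 in 5 and 25, and Orai1 in 4 and 17. The median of Orai1 was 0.06 TPM in short-total cells and 0.27 TPM in full-total cells, and it ranged down to 0 in both.

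Cckar also moved with the number of genes detected in a cell. The 54 cells with more genes detected had a median Cckar of 35.78 TPM (12.9 to 64.41), against 26.24 TPM (9.82 to 41.42) in the 54 with fewer. As a description over all cells, which share their library method and carry unknown depths, Spearman's rho was 0.557 and Pearson's r on log2(TPM + 1) was 0.525, or 0.547 without the 2 cells farthest from the median on genes detected. Within sets, rho was 0.370 in short-total cells, 0.394 in cells 49 to 91 and 0.503 in cells 1 to 48. The median rho over the 7227 genes was 0.211, and over genes found in every cell 0.299. After median-of-ratios scaling the value for Cckar was 0.253, whereas both medians are of values as deposited. Gnaq, Itpr3, Stim1 and Itpr2 had rho of 0.331, 0.284, 0.268 and 0.266 with genes detected. Chrm3 had 0.153, and Chrm1, Itpr1, Orai1 and Sctr lay between -0.022 and 0.051.

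**Figure D5:**
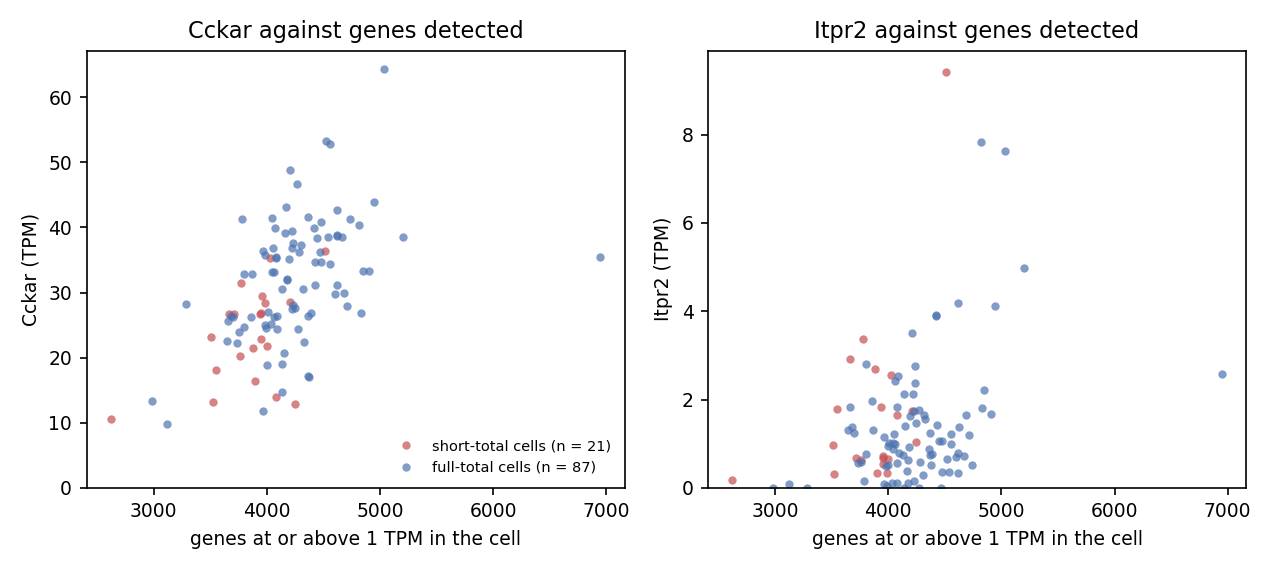
TPM of Cckar (left) and Itpr2 (right) in each cell against the number of genes at or above 1 TPM in it, with short-total cells in red and full-total cells in blue. Cckar is higher where more genes were detected, with a median of 35.78 TPM in the upper 54 cells and 26.24 TPM in the lower 54, and Itpr2 has 3 cells above 5 TPM.

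Correlations between the 10 genes across cells were weak. Over their 45 pairs, Spearman's rho ran from -0.10 to 0.236, with a median of 0.054. Cckar and Itpr2, the pair found most widely, had a rho of 0.064 over all cells, 0.535 in the 21 short-total cells and -0.0057 in the 87 full-total cells. The pooled Pearson's r of 0.212 became 0.155 without the 2 cells farthest from the median of Cckar. In values this sparse, correlations of that size describe these cells and no more.

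The genes most like Cckar in pattern, by rho of log2(TPM + 1) over all cells among the 3724 other genes with a symbol found in at least 50% of them, were Rnh1 (0.645), a ribonuclease inhibitor, Serp1 (0.625), a protein of the endoplasmic reticulum translocon, and Spcs3 (0.613), a subunit of the signal peptidase. The median over the 3724 genes was 0.181. Within sets the values were lower, with Rnh1 at 0.538 in short-total and 0.580 in full-total cells. Serp1 had 0.468 and 0.526, and Spcs3 0.451 and 0.537, in the same order. Rnh1, Serp1 and Spcs3 shared the relation of Cckar to genes detected, with rho of 0.609, 0.589 and 0.616. For Itpr2, the most alike were Zfp36l1 (0.420), an RNA-binding protein, Slc41a1 (0.416), a magnesium transporter, and Xbp1 (0.405), a transcription factor of the unfolded protein response, beside a median of 0.056. The value for Zfp36l1 was 0.151 in short-total and 0.466 in full-total cells. That for Slc41a1 was 0.277 and 0.456, and that for Xbp1 0.626 and 0.363, in the same order. With genes detected, rho was 0.229 for Zfp36l1, 0.584 for Slc41a1 and 0.555 for Xbp1, beside 0.266 for Itpr2.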

How the data were processed

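Single-cell RNA-seq was read in 108 acinar cells, all in 1 group. The authors' deposited table holds TPM per gene, rounded to 2 decimals, with the unit taken from the values, which add up to nearly 1000000 per cell for most. Per the submitters' processing notes, the tools were RSEM 1.2.21, STAR 2.4.2a and edgeR and the build mm10; their roles are not given in the sources used here. RSEM is known to share reads among similar transcripts by estimation. Genes were matched to symbols by Ensembl ID (44548 entries), and 1 listed gene, Itprip, had no entry.

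The members and gene lists were chosen with earlier results of these data known. Detection was 1 TPM, and shares carry exact (Clopper-Pearson) 95% intervals. For 0 cells, the limit is 3 of 108. Spread was set against a lowess trend (statsmodels 0.14.6, span 0.3) of squared coefficient of variation over mean TPM, both on log10 scales, and the functions were tested on simulated data. Correlations used log2(TPM + 1) and are descriptions. The bound after cell 48 came from that earlier work. Named genes were the 10 members, their relatives, the 3 highest and 2 most spread genes of each list, and the 3 genes most like Cckar and Itpr2. Those named outside this rule (Grpr, Adcyap1r1 and markers beyond the 2 highest of each list) and single cells were chosen after their values were seen, as was leaving out the highest cells of the variable pathway genes. Alternatives were other detection levels, scalings, trends, filters, pseudocounts and sets of cells. Loci and sequences are from GENCODE M21 (GRCm38, equivalent to mm10). No cell was left out and no doublet caller was run, although the labels' protocols state that the suspension also held clusters of cells. Some results on single genes are not reported here.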

Additional observations from a re-analysis of the deposited data

How the results depend on the processing

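No paired analysis was possible because all cells form 1 group. The detection level moved the shares most. At or above 5 TPM, Chrm3, Sctr, Gnaq, Stim1 and Orai1 were in 0% of cells and Itpr2 in 2.78%, and the receptor pairs of Cckar with Chrm3 or Sctr and of Chrm3 with Sctr were in 0%. Above 0, the shares were 17.6% for Chrm1, 62% for Chrm3, 13.9% for Sctr, 98.1% for Gnaq, 36.1% for Itpr1, 95.4% for Itpr2, 57.4% for Itpr3, 90.7% for Stim1 and 59.3% for Orai1. Pairs of Cckar with Chrm1, Chrm3 and Sctr were then in 17.6%, 62% and 13.9%, Chrm1 with Chrm3 in 12.0% and Chrm3 with Sctr in 9.26%. Without the 50 highest genes and rescaled to 1000000, an alternative chosen after seeing the data that multiplies values by a median of 19.6, the shares at 1 TPM were 14.8% for Chrm1, 59.3% for Chrm3, 13.9% for Sctr, 97.2% for Gnaq, 24.1% for Itpr1, 95.4% for Itpr2, 43.5% for Itpr3, 89.8% for Stim1 and 59.3% for Orai1. The pairs were then in 14.8% (Cckar with Chrm1), 59.3% (Cckar with Chrm3), 13.9% (Cckar with Sctr), 9.26% (Chrm1 with Chrm3) and 9.26% (Chrm3 with Sctr), Pearson's r of Cckar and Itpr2 was 0.091, and rho of Cckar with genes detected was 0.226. In short-total cells alone, Chrm3 was in 23.8%, as was its pair with Cckar, and Sctr, with its pairs, in 0%. There, Pearson's r and rho of Cckar and Itpr2 were 0.532 and 0.535, and rho of Cckar with genes detected was 0.370. In full-total cells alone, rho of Cckar and Itpr2 was -0.0057. Under median-of-ratios scaling, rho with genes detected was 0.253 for Cckar and 0.166 for Itpr2. The log2 difference of Itpr2 between short-total and full-total cells was -0.03 as deposited, 0.098 under median-of-ratios scaling and 0.064 without the 50 highest genes. The cause of these moves was not tested. Leaving out cells 31 and 40, or Cell__number_113 (chosen after seeing the data), moved none of the correlations compared by 0.1 or more. The shares and pairs stayed near their values over all cells, with Chrm3 in 10.4% without cells 31 and 40 and in 9.35% without Cell__number_113. Spread ratios stayed under the call of 2 wherever a member could be compared, with 11.4% to 15.5% of all genes called. Chrm3 had no ratio with a filter of 25% of cells, in full-total cells or without Cell__number_113, where it was too rarely detected, Orai1 had none with the 25% filter, and short-total cells were not compared for spread. Depth is unknown, so detection rates carry no correction for it.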

Other observations

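Cell__number_113, a short-total cell singled out after its values were seen, held the highest Chrm3 (3.62 TPM) and Itpr2 (9.43 TPM) and the next to highest Gnaq (1.97 TPM). It was also the highest cell for Atp2c1, a Golgi calcium pump (8.80 TPM), and Slc8b1, the mitochondrial sodium-calcium exchanger (6.62 TPM). Of the 75 members and pathway genes found in at least 10% of cells, 5 were highest in this cell (6.67%). Of all 7227 such genes, 474 were highest in it (6.56%), which placed it after Cell__number_40 with 752. It held 4514 genes at or above 1 TPM, and endocrine, stellate, endothelial, macrophage, lymphocyte, neural and smooth muscle markers were at 0 TPM in it.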
